A study of Mus musculus with 5 samples.

Results

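The genes of the ISG15 conjugation pathway were examined in kidney RNA from mice given DMXAA or vehicle. The pathway was taken as 5 genes, chosen by symbol from a table of 54532 gene IDs: Isg15, Uba7, Ube2l6, Herc6 and Usp18. All 5 were found in the table and all 5 passed the default expression filter, which kept 16226 genes. The mice were wild-type C57BL/6J males, 8 weeks old. One group of 2 libraries came from mice injected intraperitoneally with DMXAA, a small-molecule activator of mouse STING, at 10 mg/kg a day over 3 days, and the control group of 3 libraries came from mice given vehicle on the same schedule. Kidney was collected on day 3 in both groups. Whole kidney RNA was sequenced, so fewer cells of a type and less RNA per cell cannot be told apart.

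ISG15 is a small ubiquitin-like protein that interferon induces strongly. It is joined to target proteins by a cascade like that of ubiquitin: UBA7 is the activating enzyme (E1), UBE2L6 (also called UBCH8) the conjugating enzyme (E2) and HERC6 the main ligase (E3) in the mouse, which lacks the HERC5 gene that serves this step in humans. USP18 cleaves ISG15 from its targets and, apart from that activity, binds the interferon receptor subunit IFNAR2 and dampens signalling. All of these genes are known as interferon-stimulated genes, and STING activation is a known route to interferon production.

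Interferon acts on many of its target genes through the interferon-stimulated response element, bound by a complex that contains STAT2 and IRF9. The 250 bases before the RefSeq start of transcription (GRCm38.p6) were therefore read for 4 of the 5 members. The promoter of Usp18 was not analysed here. The core of the response element was searched as GAAA, any 2 bases and GAAA again, and a shorter element of interferon regulatory factors as AANNGAAA, each on both strands. Every match of the first is also a match of the second. The promoters of Isg15, Uba7 and Ube2l6 are shown because they hold, in turn, the long core, the short element alone and neither. Capitals mark bases within a match of either interferon element, and each line reads 5′ to 3′ along the gene's strand.
Isg15: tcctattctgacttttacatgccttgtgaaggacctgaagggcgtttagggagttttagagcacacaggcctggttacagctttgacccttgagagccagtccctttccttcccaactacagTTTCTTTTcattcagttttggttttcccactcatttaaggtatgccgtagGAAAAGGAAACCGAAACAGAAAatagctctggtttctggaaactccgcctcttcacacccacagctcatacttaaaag
Uba7: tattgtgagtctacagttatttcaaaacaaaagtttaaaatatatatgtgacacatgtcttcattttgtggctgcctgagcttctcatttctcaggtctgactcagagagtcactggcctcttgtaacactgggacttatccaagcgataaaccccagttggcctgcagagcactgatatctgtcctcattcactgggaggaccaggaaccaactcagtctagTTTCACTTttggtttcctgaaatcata
Ube2l6: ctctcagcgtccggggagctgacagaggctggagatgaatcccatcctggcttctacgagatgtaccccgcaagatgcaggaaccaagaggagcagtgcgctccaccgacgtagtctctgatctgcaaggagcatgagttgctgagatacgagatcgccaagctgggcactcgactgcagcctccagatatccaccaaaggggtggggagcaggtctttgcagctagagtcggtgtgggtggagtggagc
The Isg15 sequence is on the minus strand of chr4:156200819-156201068, the Uba7 sequence on the plus strand of chr9:107975317-107975566 and the Ube2l6 sequence on the plus strand of chr2:84798578-84798827. Isg15 held 3 overlapping matches of the long core between positions -78 and -57, counted back from -1 at the base before the start, and 4 matches of the short element, 3 of them inside the long ones. Uba7 held 0 matches of the long core and 1 of the short element, from -27 to -20 on the opposite strand. The RefSeq start of Uba7 lies downstream of the GENCODE one, so the last 62 bases of its window, this match included, are inside the gene as GENCODE annotates it. Ube2l6 and Herc6 held 0 matches of either, which says only that these letters are not in this window. Of 32851 promoters of the same length, 2.98% held the long core and 21.3% the short element. A match is a description of the letters and not a measurement of binding.

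The DMXAA libraries were each higher in Isg15 and Usp18 RNA than any vehicle library, while Uba7, Ube2l6 and Herc6 overlapped between the groups. For Isg15 the gap between DMXAA library 1 and vehicle library 2 was smaller than counting error. By the fitted values, Isg15 was 1.77-fold and Usp18 1.73-fold higher than in vehicle. No member passed the test after adjustment over all genes (0 of 5). At an unadjusted p below 0.05 in edgeR there was 1 member, Usp18. This count depended on the fit. Isg15 was also below 0.05 in DESeq2 (unadjusted p = 0.047), and Usp18 was above it in edgeR without vehicle library 3 (unadjusted p = 0.056). Over the whole table, edgeR's quasi-likelihood test put 0 of 16226 genes (0%) past the adjusted threshold and 1062 (6.55%) below an unadjusted p of 0.05. DESeq2 called 58 genes, and 0 of them were members. Levels are read counts scaled to library size (CPM), and groups are given as mean ± SD.

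**Figure D1:**
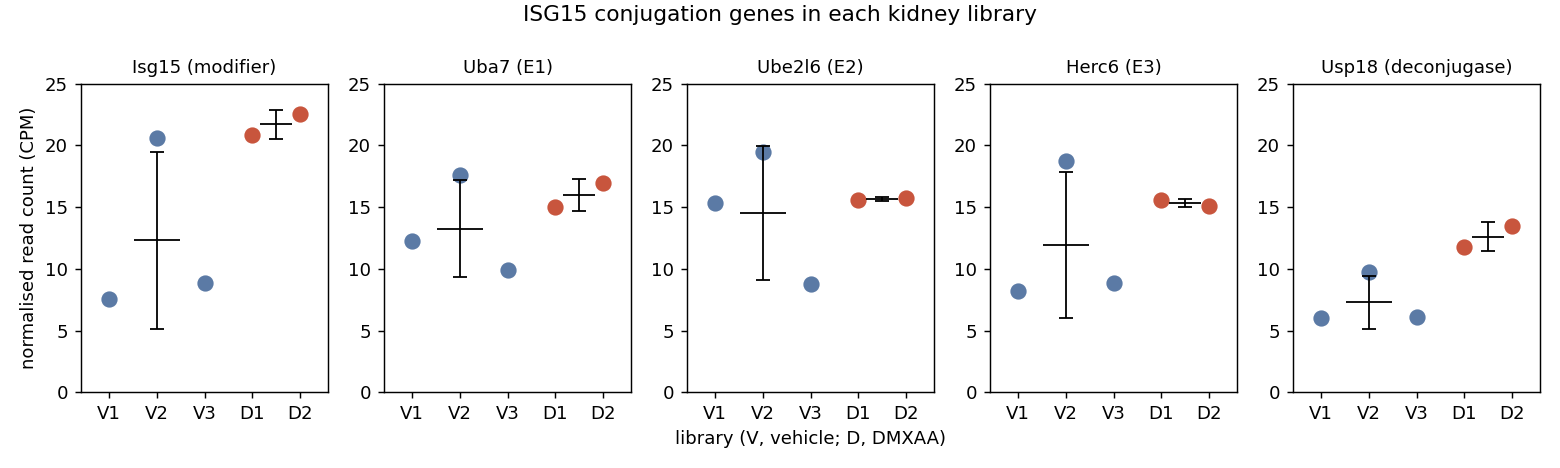
Normalised read count (CPM, linear axis from 0) of the 5 ISG15 conjugation genes in each kidney library. Points are the 3 vehicle (blue) and 2 DMXAA (red) libraries, and black marks are group means with SD. For Isg15 and Usp18 each red point is above every blue one, and vehicle library 2 is the highest vehicle library for all 5 genes.

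The modifier itself comes first. Isg15 (ENSMUSG00000035692; mm10 chromosome 4, 156199424 to 156200818, minus strand) was at 7.51, 20.6 and 8.82 CPM in vehicle libraries 1, 2 and 3, against 20.9 and 22.5 CPM with DMXAA libraries 1 and 2. Both DMXAA libraries lay above all vehicle libraries, but vehicle library 2 fell just short of them and the other vehicle libraries were far lower. Vehicle library 2 had 362 counts and DMXAA library 1 had 376. That gap was smaller than counting error, which was at least 4.70% for Isg15, so their order was not resolved. The means were 12.3 ± 7.20 CPM (n = 3) and 21.7 ± 1.18 CPM (n = 2), and the log2 fold change was 0.82 (SE 0.41; adjusted p = 0.750, edgeR). The difference was therefore not separated from the spread within the vehicle group.

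The activating enzyme gene Uba7 (ENSMUSG00000032596; chromosome 9, 107975505 to 107984060, plus strand) was at 12.2, 17.6 and 9.93 CPM in vehicle, against 15.0 and 16.9 CPM with DMXAA. Vehicle library 2 was the highest of all 5 libraries, so the groups overlapped. The log2 fold change was 0.27 (SE 0.24; edgeR adjusted p = 0.821).

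The conjugating enzyme gene Ube2l6 (ENSMUSG00000027078; chromosome 2, 84798828 to 84810335, plus strand) differed least of the 5, with 15.4, 19.4 and 8.76 CPM in vehicle, against 15.5 and 15.8 CPM with DMXAA. The DMXAA libraries nearly coincided with each other and with vehicle library 1. Its log2 fold change was 0.11 (SE 0.30; edgeR adjusted p = 0.945), and it was -0.15 without vehicle library 3.

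The ligase gene Herc6 (ENSMUSG00000029798; chromosome 6, 57581000 to 57664632, plus strand) was at 8.16, 18.7 and 8.87 CPM in vehicle, against 15.6 and 15.1 CPM with DMXAA. The DMXAA libraries were above vehicle libraries 1 and 3 and below vehicle library 2. The log2 fold change was 0.37 (SE 0.35; edgeR adjusted p = 0.831).

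Usp18, which removes ISG15 (ENSMUSG00000030107; chromosome 6, 121245906 to 121270917, plus strand), was at 6.00, 9.78 and 6.10 CPM in vehicle, against 11.8 and 13.4 CPM with DMXAA. It was the member with the clearest gap between the groups, from 9.78 CPM in the highest vehicle library to 11.8 CPM in the lower DMXAA library. The means were 7.29 ± 2.15 CPM (n = 3) and 12.6 ± 1.18 CPM (n = 2), and the log2 fold change was 0.79 (SE 0.25; unadjusted p = 0.016 and adjusted p = 0.724 in edgeR; adjusted p = 0.350 in DESeq2).

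By estimate, the members fell in the order Isg15, Usp18, Herc6, Uba7 and Ube2l6. Neighbours in this order differed by less than either SE, except Usp18 and Herc6, whose difference was not tested. The median log2 fold change over the 5 was 0.37, against -0.01 over all tested genes. All 5 estimates were above 0, as were 46.9% of all tested genes. For 2 of 5 members each DMXAA library exceeded every vehicle library, as for 13.7% of all tested genes, though for Isg15 the smallest gap was within counting error. These members were chosen as genes known to respond to interferon, so their shared direction is described without a test.

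The spread of the pathway was within the vehicle group. Vehicle library 2 was the highest vehicle library for 5 of 5 members, and for 37.2% of all tested genes. The ratio of the highest to the lowest vehicle library was 2.74 for Isg15, 2.29 for Herc6, 2.22 for Ube2l6, 1.77 for Uba7 and 1.63 for Usp18. The median over the 5 was 2.22, against 1.26 over 3184 tested genes of like abundance (average log2 CPM of 3 to 4.5). The DMXAA libraries were close to each other: the coefficient of variation was 1.05% for Ube2l6, 2.16% for Herc6, 5.44% for Isg15, 8.30% for Uba7 and 9.36% for Usp18, against 29.5% to 58.5% in vehicle. Genes of like abundance had medians of 6.64% in DMXAA and 12.2% in vehicle, so the members (medians 5.44% and 37.1%) were near that background in DMXAA and above it in vehicle. Members had 110 to 453 counts per library, so counting error alone was 4.70% to 9.53%. The vehicle spread lay above this range and the DMXAA spread within or below it.

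Because of that spread, each fold change was read again without each library. Without vehicle library 2 the log2 fold changes were 1.41 for Isg15 (SE 0.14; edgeR adjusted p = 0.0917), 1.06 for Usp18 (SE 0.17; 0.258), 0.85 for Herc6 (SE 0.14; 0.268), 0.53 for Uba7 (SE 0.16; 0.374) and 0.38 for Ube2l6 (SE 0.26; 0.618). None passed the adjusted threshold there either. All 5 members lay above both remaining vehicle libraries in that case, as did 22.9% of all tested genes. Leaving out vehicle library 2 removed the highest control of all 5 members, but of only 37.2% of all tested genes. The share over all genes is therefore not a like background, and the larger estimates follow from which library was left out. Without any other single library the count was 2, Isg15 and Usp18. The share of all tested genes was then 21.4% without vehicle library 1, 19.2% without vehicle library 3, 23.9% without DMXAA library 1 and 22.4% without DMXAA library 2.

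Vehicle libraries 1 and 3 set the other limits. Without vehicle library 1 the estimate was 0.56 for Isg15, 0.66 for Usp18 and 0.15 for Herc6. Without vehicle library 3 it was 0.10 for Uba7 and 0.19 for Herc6. Leaving out DMXAA library 2 brought Uba7 to 0.18. Usp18 was the steadiest member in this respect, with estimates between 0.66 and 1.06.

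**Figure D2:**
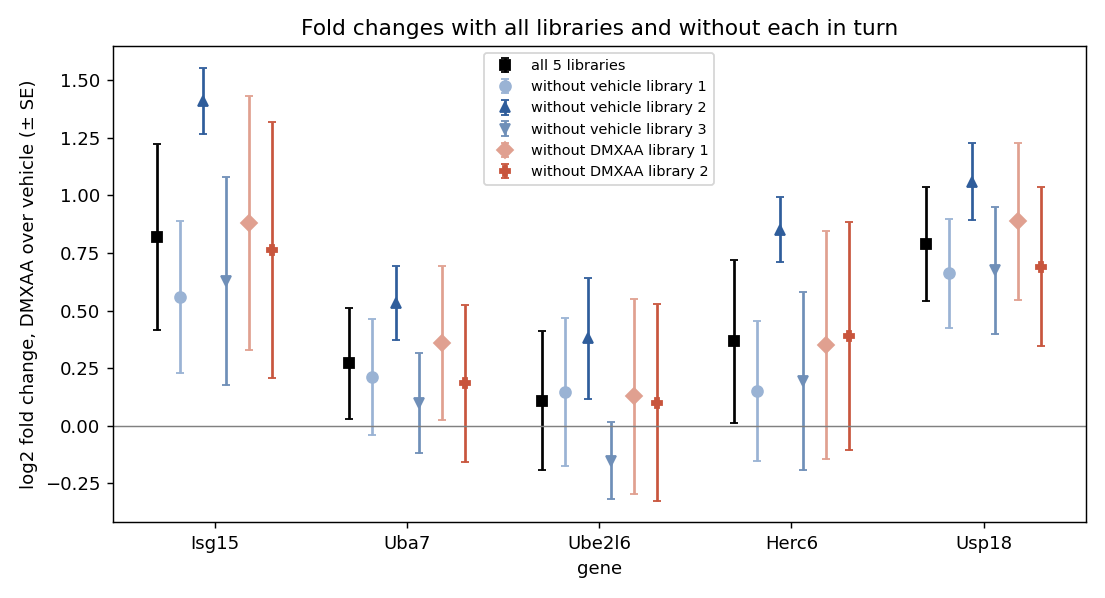
Log2 fold change of DMXAA over vehicle (± SE, edgeR) for the 5 genes, with all 5 libraries (black squares) and without each library in turn (coloured markers). Estimates are largest without vehicle library 2, and Ube2l6 is below 0 without vehicle library 3.

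Ratios between members within a library do not depend on how libraries are scaled against each other. Of the 10 possible pairs, 6 had ratios that did not overlap between the groups, and these were the pairs that set Isg15 or Usp18 against Uba7, Ube2l6 or Herc6. For Ube2l6 and Herc6 over Usp18 the smallest gap between the groups was within counting error. Thus 3 of 4 other members did not overlap with respect to Usp18 and 3 of 4 with respect to Isg15, while the same held for 72.6% and 46.9% of all other tested genes. The count for Usp18 is close to that background, which counts both directions. With 3 libraries against 2 an exact permutation test cannot give a two-sided p below 0.1, so no single pair can pass a threshold of 0.05.

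Isg15 had 0.615, 1.17 and 0.888 counts per count of Uba7 in vehicle libraries 1 to 3, against 1.39 and 1.33 with DMXAA. Against Ube2l6 the same ratio was 0.489, 1.06 and 1.01 in vehicle and 1.34 and 1.43 in DMXAA. Against Herc6 it was 0.921, 1.10 and 0.994 in vehicle and 1.34 and 1.49 in DMXAA. Vehicle library 2, the one with the most Isg15 among the controls, thus stayed below both DMXAA libraries in each of these ratios. Among all other tested genes, 0.955% had a ratio to Uba7 that was higher in both DMXAA libraries than in every vehicle library. The same held for 1.04% of genes set against Ube2l6 and 0.345% of those set against Herc6. These shares count only the higher direction, which is that of the Isg15 ratios. The ratios of Usp18 to Uba7, Ube2l6 and Herc6 were also higher in both DMXAA libraries than in every vehicle library. The 46.9% for Isg15 and 72.6% for Usp18 given above count both directions, so the shares cannot be compared with each other. Uba7, Ube2l6 and Herc6 were each lower in vehicle library 3 (9.93, 8.76 and 8.87 CPM) than in both DMXAA libraries. A gene with steady levels could therefore not have a higher ratio to them in DMXAA. The shares against these genes are thus not a like background.

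The ratio of Uba7 to Usp18 was 2.04, 1.80 and 1.63 in vehicle and 1.28 and 1.26 in DMXAA, a mean difference of -0.52 on the log2 scale (0.86 ± 0.16 in vehicle, n = 3; 0.34 ± 0.02 in DMXAA, n = 2). For Ube2l6 over Usp18 the values were 2.56, 1.99 and 1.44 in vehicle and 1.32 and 1.17 in DMXAA. For Herc6 over Usp18 they were 1.36, 1.91 and 1.45 in vehicle and 1.33 and 1.13 in DMXAA, so the gap was narrow. Counting error of Usp18 alone was 6.09% to 9.53%. The smallest gaps of the Ube2l6 and Herc6 ratios were within it, so the order of those libraries was not resolved.

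Between Isg15 and Usp18 the groups overlapped. Isg15 had 1.25, 2.10 and 1.45 counts per count of Usp18 in vehicle and 1.77 and 1.68 in DMXAA, with the highest value in vehicle library 2. The enzymes of the cascade also overlapped among themselves. Uba7 over Ube2l6 ran from 0.796 to 1.13 in vehicle and was 0.968 and 1.07 in DMXAA, and Ube2l6 over Herc6 was 1.88 in vehicle library 1 and between 0.988 and 1.04 in the other 4 libraries. Uba7 over Herc6 was 0.964 and 1.12 in DMXAA. Vehicle libraries 2 and 3 were near these values and vehicle library 1 was higher, so these ratios did not set the DMXAA libraries apart. They are ratios of counts without a correction for gene length, so they do not compare the levels of the E1, E2 and E3 genes.

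**Figure D3:**
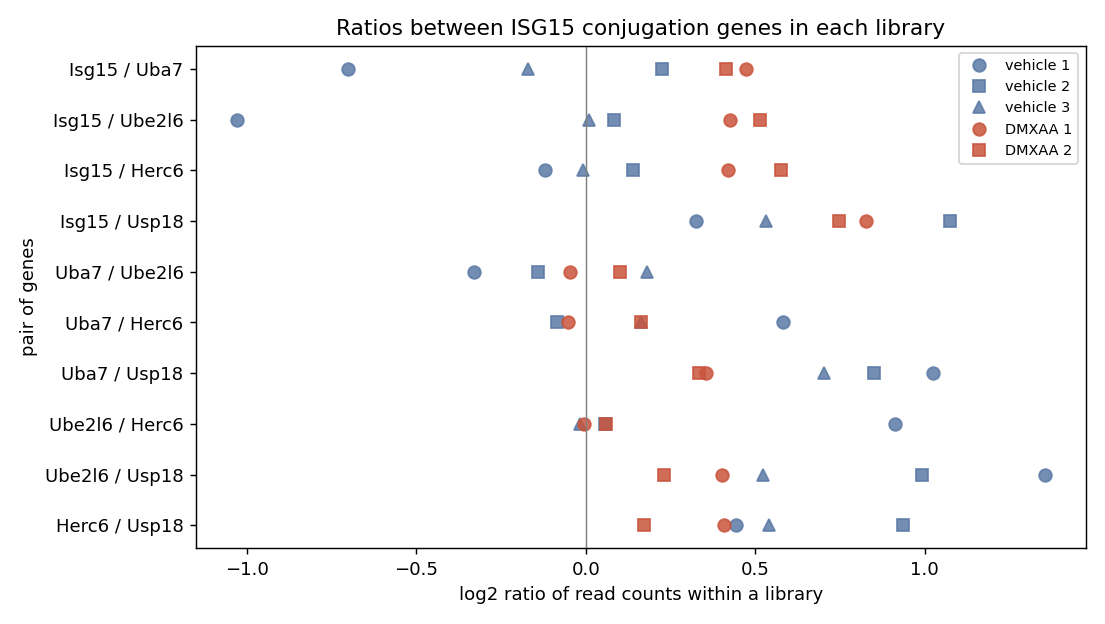
Log2 ratio of read counts within each library for the 10 pairs of ISG15 conjugation genes; blue markers are vehicle and red markers DMXAA libraries. The red markers lie apart from all blue ones in the 6 pairs that set Isg15 or Usp18 against Uba7, Ube2l6 or Herc6. For Ube2l6 and Herc6 over Usp18 the smallest gap is within counting error.

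Levels of different genes can be compared only per length. On the scale of CPM per kilobase of exon (the union of exons in GENCODE M21), Isg15, the shortest gene with 0.756 kb, was at 16.3 ± 9.52 in vehicle and 28.7 ± 1.56 in DMXAA. Ube2l6 followed at 7.27 ± 2.70 and 7.84 ± 0.08, and Usp18 at 2.61 ± 0.77 and 4.52 ± 0.42. Uba7 was at 1.98 ± 0.59 and 2.39 ± 0.20, and Herc6 at 1.28 ± 0.63 and 1.65 ± 0.04 (n = 3 and 2 throughout). The modifier was the most abundant transcript and the ligase the least in both groups, and this order was the same with the longest transcript as length. By the exon union, the order of all 5 genes was also the same within each of the 5 libraries. The SDs measure spread between libraries and do not use this pairing. In vehicle only Ube2l6 and Usp18 were further apart than the larger of their SDs by a clear margin; Isg15 and Ube2l6, Usp18 and Uba7, and Uba7 and Herc6 lay within about 1 SD of each other, while in DMXAA all neighbours were further apart than their SDs.

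The libraries whose patterns moved with these genes were checked against marker genes. The 6 kidney markers, among them Lrp2, Umod and Nphs1, were present in every library. The 10 leukocyte markers summed to 34.7, 38.1 and 70.8 CPM in vehicle, against 48.7 and 32.9 CPM with DMXAA. The sum was highest in vehicle library 3, where S100a8 alone gave 21.2 CPM. In both DMXAA libraries, 0 of 10 lay above and 0 of 10 below all vehicle libraries, against 13.7% and 12.3% of all tested genes. The part of leukocyte content in the pattern of the conjugation genes was not tested. No leukocyte marker was at 0 in every library. The 5 adipose markers summed to 119 CPM in vehicle library 1 against 0.111 to 2.88 CPM elsewhere, and the 6 urothelial markers to 97.5 CPM against 1.88 to 10.0 CPM. Their part in the low Isg15 of vehicle library 1 was not tested. The 5 red blood cell markers summed to 73.3 to 280 CPM in vehicle, against 29.9 and 52.3 CPM with DMXAA. In both DMXAA libraries, 5 of 5 red blood cell, 2 of 5 adipose and 0 of 6 urothelial markers lay below all vehicle libraries. The share over all tested genes was 12.3%. The part of red blood cells was not tested either. Genes that overlap Uba7, Herc6 or Usp18 in the annotation had at most 10 counts in any library, and the strand setting of the counting is not given in the sources used here.

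Which other genes followed the same course over the 5 libraries was asked next. The centred log2 CPM of each gene was set against the mean centred profile of the 5 members, which was -0.45, 0.39 and -0.59 in vehicle libraries 1 to 3 and 0.28 and 0.37 in the DMXAA libraries. Of 13323 other genes, the nearest was Ifit3, an antiviral interferon-stimulated gene, at a root mean square difference of 0.06, against a median of 0.45 over all genes compared. Ifit3 was at 46.1, 90.6 and 45.8 CPM in vehicle, against 86.3 and 89.0 CPM with DMXAA, so that vehicle library 2 and both DMXAA libraries were nearly equal. The next were Gm44785, the adenosine deaminase gene Ada, Asap3, the oligoadenylate synthetase family gene Oas1b, Gm6395, Gm10175, the Fc receptor and ubiquitin ligase gene Trim21, Erich6b and Osbp2, at differences of 0.07 to 0.13. Among the members, Herc6 lay nearest the mean profile (0.13) and Isg15 and Ube2l6 farthest (0.28 each). Likeness over 5 libraries is a description of these libraries.

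**Figure D4:**
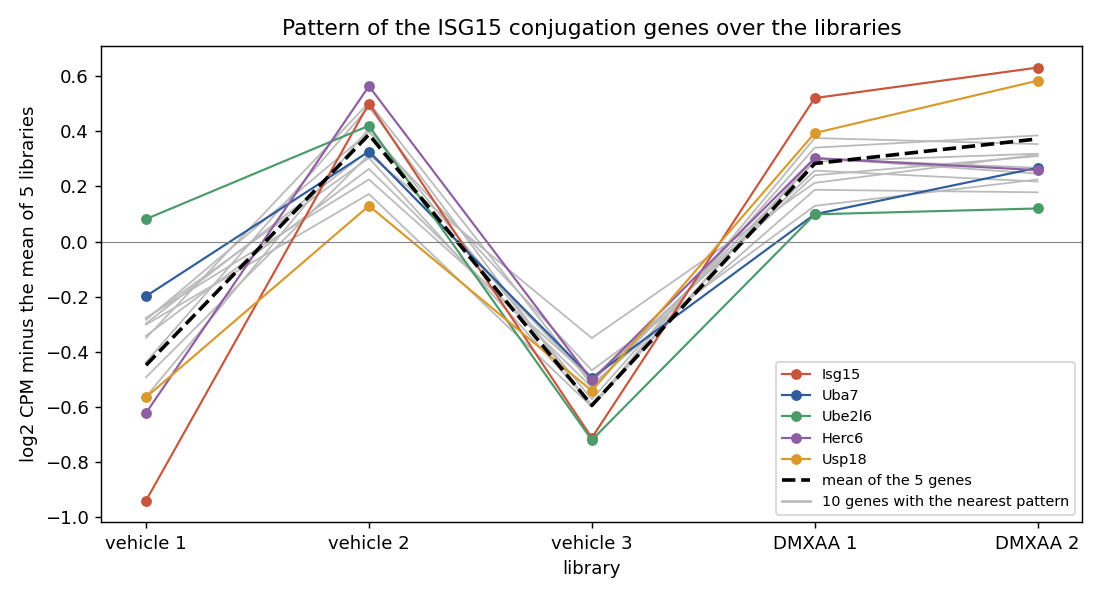
Log2 CPM minus the mean over the 5 libraries, for the 5 ISG15 conjugation genes (coloured), their mean (dashed) and the 10 other genes nearest to that mean (grey). The mean profile is low in vehicle libraries 1 and 3 (-0.45 and -0.59) and high in vehicle library 2 (0.39) and both DMXAA libraries (0.28 and 0.37).

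Other partners of ISG15 were taken as a list of 13 genes: further ligases and conjugating enzymes, proteases that also accept ISG15, the receptor subunits for secreted ISG15 and partners of USP18. None of the 13 passed edgeR's adjusted test; 2 were higher and 0 lower at an unadjusted p below 0.05 (3.89% and 2.65% of all tested genes). Trim25, a ligase that modifies the RNA sensor RIG-I and is known as an ISG15 ligase, was at 107, 104 and 105 CPM in vehicle, against 153 and 160 CPM with DMXAA. Its vehicle libraries were nearly equal, unlike those of the 5 conjugation genes, and vehicle library 2 was the lowest. The log2 fold change was 0.57 (SE 0.08; adjusted p = 0.535 in edgeR and 7.39e-06 in DESeq2). Usp2, a deubiquitinase that also cleaves ISG15 and is known for its daily rhythm, was at 123, 123 and 113 CPM in vehicle, against 162 and 182 CPM with DMXAA (log2 fold change 0.52, SE 0.10; adjusted p = 0.620 in edgeR and 0.00506 in DESeq2). These were the only genes of the lists that DESeq2 called.

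The receptor gene Ifnar2, to whose product USP18 binds, was at 18.4, 19.0 and 21.4 CPM in vehicle, against 21.7 and 23.1 CPM with DMXAA (log2 fold change 0.19, SE 0.12). Usp14, a proteasome-bound deubiquitinase, was at 41.4, 45.9 and 39.9 CPM and 38.3 and 39.0 CPM (-0.13, SE 0.10). The gaps between the groups were small for both. The whole list had a median log2 fold change of 0.10, with 9 estimates above 0 and 4 below.

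The relatives that serve ubiquitin showed small differences between the groups. Of the 7, which comprise the ubiquitin E1 genes Uba1 and Uba6, the E2 gene Ube2l3 and Herc1 to Herc4, none was at an unadjusted p below 0.05, and the median was 0.10 (range 0.02 to 0.30). Uba1 was at 200 ± 2.67 CPM (n = 3) and 215 ± 18.4 CPM (n = 2). Herc2, the largest estimate of the list, was at 97.4, 70.0 and 88.2 CPM in vehicle, against 101 and 109 CPM with DMXAA (0.30, SE 0.14). Herc1 was at 77.0 ± 11.6 and 84.8 ± 0.32 CPM and Herc3 at 81.8 ± 6.90 and 87.9 ± 6.90 CPM.

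Ubiquitin and the other ubiquitin-like modifiers had a median of -0.02 over 14 genes, with 1 gene higher and 0 lower at an unadjusted p below 0.05. That gene was Urm1, which modifies transfer RNA by sulphur transfer, at 28.8, 30.8 and 26.2 CPM in vehicle, against 33.8 and 38.0 CPM with DMXAA (0.33, SE 0.11; edgeR adjusted p = 0.737). Ubl5, a splicing-related modifier, was at 90.3 ± 7.97 and 76.9 ± 4.01 CPM. Ubd encodes FAT10, the other modifier known to be induced by interferon, and was named after its values were seen. It was at 1.08, 15.1 and 5.99 CPM in vehicle, against 13.6 and 12.3 CPM with DMXAA, so vehicle library 2 was again the highest of all libraries. The 14 activating and conjugating enzymes of these modifiers had a median of -0.04 (range -0.18 to 0.18) and none at an unadjusted p below 0.05. The NEDD8 E1 subunit gene Uba3 was at 53.3 ± 2.80 and 60.5 ± 0.34 CPM, the autophagy E1 gene Atg7 at 29.0 ± 1.88 and 25.6 ± 0.66 CPM and Ube2z at 95.4 ± 5.22 and 89.6 ± 5.44 CPM.

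**Figure D5:**
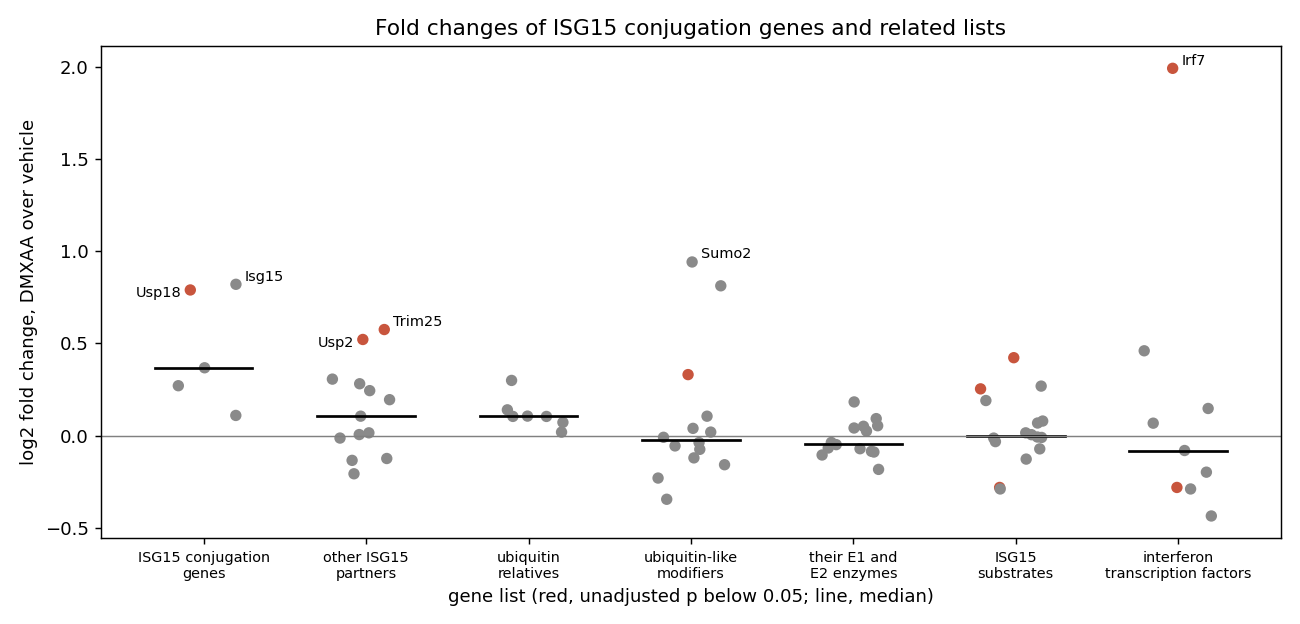
Log2 fold change of DMXAA over vehicle for the 5 ISG15 conjugation genes and 6 related lists. Each point is a gene, red points have an unadjusted p below 0.05 in edgeR, and black lines are list medians, which are 0.37 for the conjugation genes and between -0.08 and 0.10 for the other lists.

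Genes for proteins known to be modified by ISG15 had a median of -0.002 over 16, with 2 higher and 1 lower at an unadjusted p below 0.05 and 0 passing the adjusted test. Ifih1, the RNA sensor MDA5, was at 23.6, 33.4 and 25.1 CPM in vehicle, against 34.5 and 38.8 CPM with DMXAA (0.42, SE 0.16; edgeR adjusted p = 0.741). Jak1, the kinase at the interferon receptor, was at 149 ± 7.39 and 177 ± 0.21 CPM (0.25, SE 0.09). Irf3, the transcription factor downstream of STING, was lower in both DMXAA libraries than in any vehicle library, at 50.1 ± 3.43 and 41.2 ± 0.81 CPM (-0.28, SE 0.10; edgeR adjusted p = 0.741). Eif2ak2, the RNA-activated kinase PKR, was at 29.6 ± 4.96 and 35.6 ± 2.60 CPM.

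Among 9 interferon-pathway transcription factors the median was -0.08, with 1 higher and 1 lower at an unadjusted p below 0.05. Irf7, the inducible factor for interferon genes, had the largest estimate (1.99, SE 0.54). Its edgeR adjusted p was 0.724, and 0.0410 without the expression filter. Levels of Irf7 were 48.8, 193 and 68.4 CPM in vehicle, against 343 and 478 CPM with DMXAA. Vehicle library 2 was thus again the highest vehicle library, though below both DMXAA libraries. Irf9, the DNA-binding part of the complex that reads the response element, was at 28.7, 44.6 and 28.9 CPM in vehicle, against 42.1 and 51.5 CPM with DMXAA. Its course over the libraries resembled that of the conjugation genes, with vehicle library 2 above the lower DMXAA library. Irf5 was at 15.7 ± 1.78 and 13.7 ± 1.17 CPM. Stat2, the partner of IRF9 singled out once its values were known, was at 24.5, 50.9 and 26.2 CPM in vehicle, against 36.2 and 38.7 CPM with DMXAA, so vehicle library 2 was the highest.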

How the data were processed

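RNA of 5 whole-kidney samples was sequenced. The authors deposited raw read counts per Ensembl gene ID, whole numbers with 1 column per sample. HISAT2, featureCounts, Subread, DESeq2 1.16.1 and the build mm10 are named in the submitters' processing notes, with no role stated; annotation, strand setting and handling of multi-mapped reads: not given in the sources used here. The labels name a TruSeq and a NEBNext Ultra kit without tying either to a sample, so no kit batch could be tested. Columns were assigned by name (CO as control, XA as DMXAA). Totals were 17667490 to 20264228 counts per library. Every pair of libraries differed by more than counting noise (chi-square over its degrees of freedom, 7.94 to 42.4). The labels do not say that samples came from separate mice, so p-values measure the spread between these samples.

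GENCODE M21, on the assembly of mm10, gave symbols, coordinates and lengths for 99.9% of IDs. Genes were tested in R 4.3.3 with the quasi-likelihood F test of edgeR 4.0.16 (two-sided, TMM scaling, default expression filter, group as the only term), with Benjamini-Hochberg adjustment over 16226 genes and a threshold of 0.05. Log2 fold changes are DMXAA over vehicle. Likeness used log2 CPM with a prior count of 2 for genes with an average log2 CPM above 1. The text names the members, from each list up to 4 genes by unadjusted p, and the 10 genes of nearest pattern; the exceptions are marked, and a few genes under this rule are not reported here. Alternatives were DESeq2 1.42.0, RLE scaling, other filters, robust fitting, removal of abundant genes, a length and GC correction, a block on replicate number, and omission of each library in turn. The members and lists were chosen with earlier results of these data known.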

Additional observations from a re-analysis of the deposited data

How the results depend on the processing

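All 13 alternatives gave estimates above 0 for Isg15 (0.56 to 1.41), Usp18 (0.66 to 1.06), Uba7 (0.10 to 0.53) and Herc6 (0.15 to 0.85), and none brought a member past the adjusted threshold. Ube2l6 turned to -0.14 with the replicate number as a block and ran from -0.15 (without vehicle library 3) to 0.38 (without vehicle library 2) when each library was left out. Replicate number 3 occurs only in vehicle, so the block takes vehicle library 3 out of the group comparison. Both negative estimates of Ube2l6 are therefore not independent of each other. The labels give both groups replicate numbers 1 and 2 but no shared origin. Deviations of same-numbered libraries correlated at 0.10 and 0.09. With 2 DMXAA libraries, deviations from their mean are mirror images, so different numbers give the same values with opposite sign (-0.10 and -0.09). These correlations therefore cannot decide whether libraries were paired. The block changed no member's call. The number of genes called over the whole table was 58 with DESeq2, 34 without an expression filter, 4 with the replicate block and 0 to 2 when each library was left out. Of the genes in the related lists, 2 were called by DESeq2 (Trim25 and Usp2) and 1 without an expression filter (Irf7). The cause was not tested. Leaving out each library gave 6 to 8 pairs of members whose ratios did not overlap and 2 to 5 members above all vehicle libraries, the latter added after the data were seen. The longest transcript in place of the exon union raised the per-length levels of Uba7, Herc6 and Usp18 in vehicle to 3.66, 2.50 and 4.12 CPM per kilobase. With a prior count of 0.5, 9 of the 10 genes of nearest pattern were shared. At these depths a count of 0 allows at most 0.170 CPM, by counting error only, and all members were far above it; the small number of libraries limits the precision.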

Other observations

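Sumo2, a ubiquitin-like modifier, varied between libraries in a way that did not follow the groups. It was at 57.1, 6.94 and 8.76 CPM in vehicle libraries 1 to 3 and 57.9 and 35.5 CPM in the DMXAA libraries, and its log2 fold change ran from 0.51 without vehicle library 2 to 2.56 without vehicle library 1.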
